A study of Sus scrofa with 9 samples.

Results

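The genes described are those that encode the proteins of the cytosolic ribosome in the pig, Sus scrofa. They were chosen by symbol: genes named RPL or RPS with a number, the stalk genes RPLP0, RPLP1 and RPLP2, and RPSA, without the kinases whose symbols begin with RPS6K and without some further genes that the rule leaves out by name. The rule used no measured value and found 48 genes among the 22342 of the count table, of which 14749 carried a symbol. The genes that the rule leaves out by name, and ribosomal protein genes without a matching symbol, were not analysed here as members. Below, the family means the 48 genes found, which do not cover every protein of the ribosome. Of the 48 genes, 23 encode proteins of the large subunit and 25 proteins of the small subunit. Each had a unique position in the RefSeq annotation of Sscrofa11.1, and together they lay on 15 chromosomes, 2 of them (RPS4X and RPL36A) on the X chromosome.

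RNA was sequenced from testis cells of 3 stages of sperm formation, with 3 libraries per stage. The groups were spermatogonia (libraries 1, 2 and 3), spermatocytes (libraries 2, 3 and 4) and round spermatids (libraries 1, 2 and 3). Spermatogonia are the mitotic germ cells, spermatocytes pass through meiosis, and the round spermatids that follow are haploid. The labels give no strain, age or treatment, do not say how the cells were separated, and speak of biological samples without naming animals.

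A ribosome is built from ribosomal RNA and a fixed set of proteins, most of them present in a single copy per ribosome. In animals nearly all of these proteins are encoded by short, very strongly transcribed genes whose mRNAs begin with a terminal oligopyrimidine (TOP) tract, through which mTOR and LARP1 set their translation. The large subunit forms peptide bonds and carries the exit tunnel and the stalk that recruits the translation factors. The small subunit binds the mRNA and reads the codons. In mammalian spermatocytes the X chromosome is silenced in the course of meiosis, and several X-linked housekeeping genes have autosomal copies that are used in male germ cells.

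Total estimated counts ran from 47963316 to 64639186 per library, and all 48 genes were among the 16802 that passed the filter on low counts. Levels are given as CPM, counts relative to the scaled library total, and means as mean ± SD over the 3 libraries of a stage. Summed spermatocyte markers were highest in spermatocytes (502 to 519 CPM in spermatogonia, 2355 to 2860 in spermatocytes and 226 to 298 in round spermatids), and summed round spermatid markers were highest in round spermatids (1778 to 1823 CPM in spermatogonia, 475 to 1524 in spermatocytes and 4862 to 7180 in round spermatids). Not every gene followed its sum. The spermatocyte markers SPO11 and DMC1 averaged 6.97 and 39.1 CPM in spermatogonia, above their 2.62 and 25.7 CPM in spermatocytes. The round spermatid markers ACRV1 and SPACA1 averaged 119 and 81.8 CPM in spermatogonia, above their 52.7 and 40.8 CPM in round spermatids. Summed spermatogonial markers were not highest in the libraries labelled spermatogonia. They stood at 123 to 128 CPM in spermatogonia, 39 to 50.5 in spermatocytes and 153 to 210 in round spermatids. The largest part in round spermatids was ID4, at 105 ± 36.3 CPM there and 1.03 ± 0.0509 CPM in spermatogonia. UCHL1 averaged 26.1 CPM in spermatogonia and 1.9 CPM in round spermatids, RET 12.4 and 3.07 CPM, and FGFR3 17 and 2.22 CPM. Of the 9 markers 3 were called higher and 4 lower in round spermatids over spermatogonia, beside 39.5 and 39.7% of all genes (test below). KIT, a receptor of differentiating spermatogonia whose name heads the columns read as spermatogonia, averaged 24.6 ± 1.54 CPM in round spermatids and 6.36 ± 0.165 CPM in spermatogonia (SD, n = 3 each). Columns headed SSEA4, a surface antigen that also marks spermatogonia, were not used, and which columns hold the spermatogonia samples is not stated in the labels. Markers of smooth muscle and peritubular myoid cells summed to 17.3 to 18.7 CPM in spermatogonia, 8.56 to 20 in spermatocytes and 4113 to 4970 in round spermatids. Leydig cell markers summed to 297 to 316 CPM in spermatogonia, 1.88 to 2.96 in spermatocytes and 25.6 to 33.8 in round spermatids, and leukocyte markers to 1.14 to 1.51, 0.786 to 2.05 and 21.8 to 26.7 CPM. The stages thus differed in markers of other cells as well as in those of germ cells. Of all these markers, only AMH of the Sertoli cell list was at 0 in every library of a stage, in spermatocytes. Round spermatids 2 stood apart from round spermatids 1 and 3, with a median chi-square per gene of 14.1 and 13.3 against each of them, compared with 2.27 between libraries 1 and 3. The 3 spermatogonia libraries were very close to each other (0.808 to 0.868), though further apart than counting error alone would leave them.

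As a family, transcripts of ribosomal protein genes made up the smallest share of the RNA in spermatocytes and the largest share in round spermatids. The 48 genes held 1.26, 1.21 and 1.21% of the estimated counts in spermatogonia 1, 2 and 3. They held 0.613, 0.53 and 0.501% in spermatocytes 2, 3 and 4, and 1.76, 2.24 and 1.74% in round spermatids 1, 2 and 3. The libraries of the 3 stages did not overlap. The mean share was 0.548 ± 0.0581% in spermatocytes and 1.23 ± 0.0336% in spermatogonia, a ratio of 0.447, and 1.91 ± 0.282% in round spermatids, a ratio of 3.49 over spermatocytes and 1.56 over spermatogonia (SD, n = 3). Each of these 3 differences had an exact two-sided permutation p of 0.10, which is the smallest that 3 libraries against 3 can give. Weighted per length, as share of the summed TPM (the per-length relative abundance), the 48 genes held 3.09, 3.01 and 2.99% in spermatogonia, 1.9, 1.77 and 1.61% in spermatocytes, and 3.57, 4.85 and 3.52% in round spermatids. Both subunits followed the same order: large subunit genes held 0.595 to 0.627% of counts in spermatogonia, 0.226 to 0.267% in spermatocytes and 0.867 to 1.13% in round spermatids, and small subunit genes 0.611 to 0.637, 0.274 to 0.345 and 0.868 to 1.1%. In libraries of whole cell populations, fewer cells of a type and less RNA per cell cannot be told apart.

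**Figure D1:**
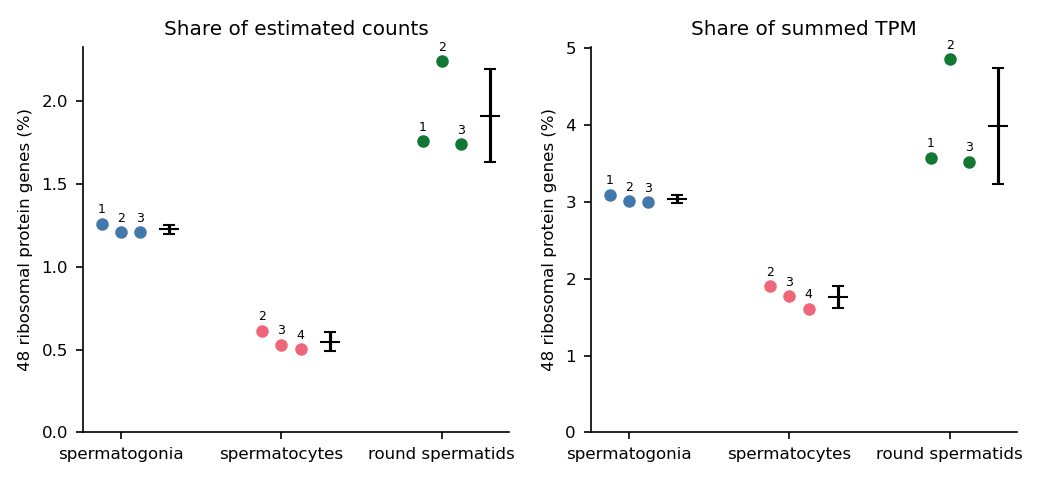
Share of the 48 ribosomal protein genes in each library, as percent of estimated counts (left panel) and percent of summed TPM (right panel), by stage; points are libraries with their numbers, and bars are the mean and SD of 3 libraries. Spermatocytes lie lowest in both panels, at 0.501 to 0.613% of counts, and round spermatids 2 lies highest, at 2.24% of counts.

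Levels between genes were compared per length, in TPM. Such ranks depend on the gene lengths that the deposited tables imply, 0.0429 times the median gene for RPS29, 0.0809 for RPS15A and 0.103 for RPS24. In spermatogonia RPS29 averaged 122 CPM, and RPS2, with 1506 TPM, averaged 1251 CPM. In spermatogonia the most abundant ribosomal protein transcript was RPLP0, the base of the ribosomal stalk, with 3214 ± 76.8 TPM, and RPS29 stood at 2138 ± 87.7 TPM (SD, n = 3). In spermatocytes and in round spermatids it was RPS24, a small subunit protein required for maturation of the small subunit rRNA, with 4312 ± 596 TPM in spermatocytes and 6045 ± 1183 TPM in round spermatids. RPS15A, also of the small subunit, came next in both stages, with 2745 ± 320 TPM in spermatocytes and 4145 ± 226 TPM in round spermatids. At the low end of the family stood the variant genes RPL3L (3.14 ± 0.194 TPM in spermatogonia, 0.965 ± 0.193 in spermatocytes and 0.844 ± 0.42 in round spermatids), RPS27L (10.1 ± 0.315, 8.74 ± 0.0214 and 10.2 ± 2.14 TPM) and RPL7L1 (41 ± 0.603, 42.4 ± 7.62 and 22.2 ± 5.98 TPM).

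Levels of these genes were less even in spermatocytes than in spermatogonia. Leaving out the 4 variant genes RPL3L, RPL7L1, RPL26L1 and RPS27L, the SD of log2 TPM across the other 44 was 1.40 to 1.41 in the spermatogonia libraries, 1.65 to 1.72 in the spermatocyte libraries, and 1.49, 1.20 and 1.51 in round spermatids 1, 2 and 3. The spermatocyte and spermatogonia libraries did not overlap in this spread (exact permutation p = 0.10, two-sided, n = 3 each). RPS24 and RPS15A alone made up 41.5 ± 1.99% of the TPM of the 48 genes in spermatocytes, against 11 ± 0.152% in spermatogonia (SD, n = 3 each). In round spermatids both genes together made up 33.6 and 36.5% in libraries 1 and 3 but 19.3% in library 2. As a share of the estimated counts of the family they held 17.6 to 20.1% in spermatocytes and 3.48 to 3.58% in spermatogonia. RPLP0 moved the other way, at 3.32 to 3.8% of the family's TPM in spermatocytes and at least 10.8% in each spermatogonia library, and at 1.84, 3.54 and 1.77% in round spermatids 1, 2 and 3.

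The largest group of members was lower in spermatocytes than in spermatogonia. Differences between stages were tested for each gene with edgeR's quasi-likelihood test over all 9 libraries, with Benjamini-Hochberg adjustment over all 16802 genes tested (the edgeR adjusted p below, called under 0.05). In spermatocytes 35 of the 48 genes fell, 7 rose and 6 did not pass the test. Of all genes tested 44.0% fell and 29.3% rose in this comparison, or 73.4% in either direction. The median log2 fold change over the 48 genes was -1.04, against -0.32 over all genes tested, a difference of -0.72 on the log2 scale. In the large subunit 16 of 23 genes fell and 2 rose, and in the small subunit 19 of 25 fell and 5 rose. In CPM, 35 members had all spermatocyte libraries below all spermatogonia libraries, and 7 had all of them above, beside 48.1 and 31.9% of all genes. The size of the median depended on scaling: without normalization factors it was -1.47, and on log2(TPM + 0.1) it was -1.57. The differences from the median of all genes were -0.72 and -0.83. Library factors shift all genes alike, so the first of these had to stay near -0.72. The summed Leydig markers and the summed round spermatid markers, given above, were lower in spermatocytes as well, and their part in the result was not tested.

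The largest falls in spermatocytes included those of small subunit genes. RPS2 and RPS3 lie at the mRNA entry, RPS23 and RPS15 near the decoding site, and RPS28 at the mRNA exit, and these 5 genes, put together after their values were seen, fell by 1.03 to 2.18 on the log2 scale, among the 35 of 48 members and 44.0% of all genes that fell. RPS15 had 48.8, 42.7 and 35.2 CPM in spermatocytes 2, 3 and 4, against 191, 188 and 193 CPM in spermatogonia 1, 2 and 3. The 2 stages were far apart, with little spread in spermatogonia (log2 fold change -2.18 ± 0.165 SE, edgeR adjusted p = 2.16e-06). RPS28 had 16.9, 14.8 and 14.7 CPM in spermatocytes, against 67.1, 69.6 and 67.2 CPM in spermatogonia, a fall of the same size (-2.14 ± 0.129 SE, edgeR adjusted p = 7.96e-07). The largest fall of all members was in RPS9, a small subunit protein that binds early in the assembly of the subunit, with 47.5, 45.7 and 35.6 CPM in spermatocytes and 198, 191 and 197 CPM in spermatogonia (-2.19 ± 0.226 SE, edgeR adjusted p = 1.33e-05). In these 3 genes every spermatocyte library was below every spermatogonia library.

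The stalk recruits the GTPases that drive translation, and RPLP0 anchors it while RPLP1 and RPLP2 form its dimers. All 3 genes fell in spermatocytes. RPLP0 had 450, 471 and 390 CPM in spermatocytes, against 1640, 1545 and 1571 CPM in spermatogonia, a log2 fold change of -1.86 ± 0.201 SE (edgeR adjusted p = 1.76e-05). RPLP1 averaged 188 ± 23.8 CPM in spermatocytes and 476 ± 31.7 CPM in spermatogonia, and RPLP2 142 ± 22.1 and 365 ± 21.9 CPM (SD, n = 3 each). RPSA, a small subunit protein also described as a laminin-binding protein, fell by 1.47 ± 0.118 SE (130 ± 7.02 CPM in spermatocytes and 361 ± 21.5 CPM in spermatogonia). Members of the exit tunnel and its rim differed among themselves. RPL4, which lines the tunnel, fell by 1.16, RPL35 at the rim fell by 0.59, and RPL23A, at the rim beside it, did not pass the test (log2 fold change -0.04). RPL5 and RPL11 bind the 5S rRNA together, as a particle that also binds MDM2. RPL5 fell by 0.60 ± 0.0992 SE, while RPL11 had 133 ± 17.3 CPM in spermatocytes and 127 ± 5 CPM in spermatogonia and did not pass the test (edgeR adjusted p = 0.712). RPS27A, made as a fusion with ubiquitin, fell by 0.77. RPL3, which lies near the peptidyl transferase centre, fell by 1.25. Among the other members that fell were RPL6, RPL7, RPL7A, RPL14, RPL27, RPL28, RPL29, RPL38 and RPL3L of the large subunit and RPS4X, RPS7, RPS12, RPS13, RPS16, RPS18, RPS20, RPS21 and RPS29 of the small subunit, by 0.53 for RPL6 to 2.01 for RPS21. RPL23, RPL26L1, RPL36A and RPS3A did not pass the test, at log2 fold changes of -0.03 for RPL23, 0.11 for RPL26L1, -0.08 for RPL36A and -0.02 for RPS3A.

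A small set rose in spermatocytes while the family's share of counts fell. RPS24 had 934, 958 and 671 CPM in spermatocytes 2, 3 and 4, against 244, 236 and 232 CPM in spermatogonia 1, 2 and 3. Even the lowest spermatocyte library, number 4, was above all spermatogonia libraries (log2 fold change 1.85 ± 0.287 SE, edgeR adjusted p = 0.000207, 3.6-fold). RPS15A had 498, 417 and 362 CPM in spermatocytes, against 159, 159 and 162 CPM in spermatogonia (1.41 ± 0.215 SE, edgeR adjusted p = 0.000178). RPL37, a small zinc-binding protein of the large subunit, had 287, 271 and 234 CPM in spermatocytes, against 115, 110 and 109 CPM in spermatogonia (1.24 ± 0.171 SE, edgeR adjusted p = 9.03e-05). These 3 genes also passed as higher without normalization factors and on both TPM scales. RPS25, RPL7L1 and RPS27L rose less, by 0.68, 0.58 and 0.32 on the log2 scale, and their calls depended on the scaling. Without normalization factors, on log2(TPM + 1), on log2(TPM + 0.1) or with the spermatogonia libraries summed into 1, 3 members were called higher, beside 20.1% of all genes without normalization factors, 15.7% on log2(TPM + 0.1) and 19.4% with spermatogonia summed. RPS27L also lost its call without spermatogonia replicate 1, 2 or 3 or without spermatocytes replicate 2 or 3, at log2 fold changes of 0.29 to 0.34 and edgeR adjusted p-values of 0.0515 to 0.0998.

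**Figure D2:**
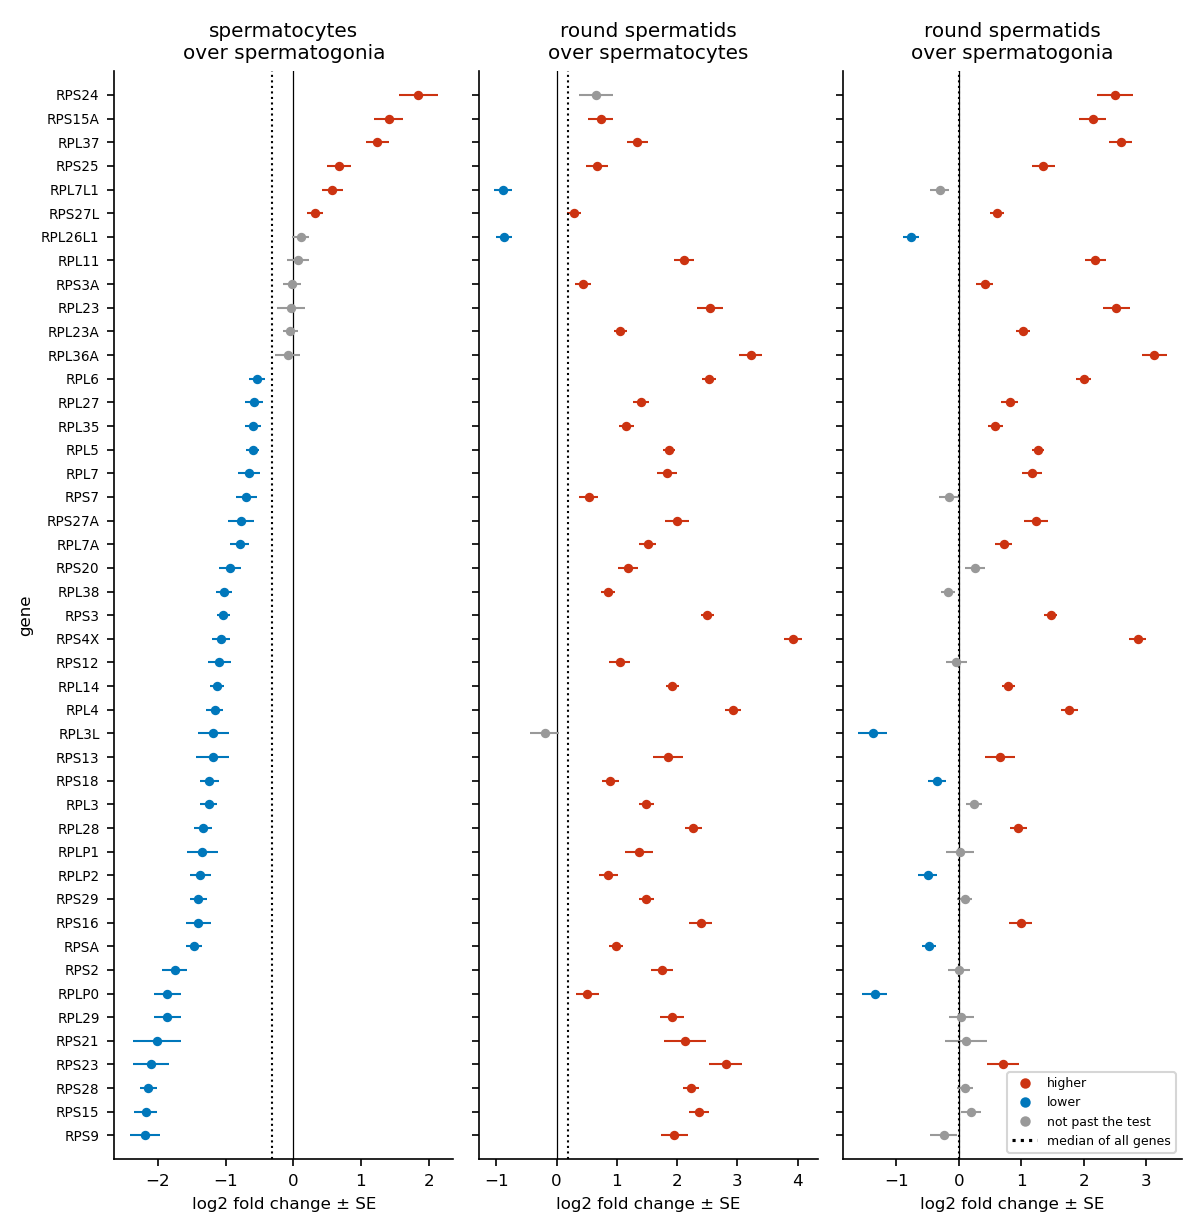
Fitted log2 fold change with its SE (horizontal axes) of 45 of the 48 ribosomal protein genes (rows, ordered by the first panel) in spermatocytes over spermatogonia, round spermatids over spermatocytes and round spermatids over spermatogonia; red points were called higher, blue lower and grey neither, and the dotted line is the median of all genes tested. In the first panel 33 of these 45 genes lie left of 0 as called, in the second 41 lie right of it, and the third is mixed with 25 higher and 6 lower.

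Nearly all members were higher in round spermatids than in spermatocytes. Of the 48 genes 44 rose, 2 fell and 2 did not pass the test, while of all genes tested 42.7% rose and 36.4% fell in this comparison, or 79.2% in either direction. The median log2 fold change was 1.49 over the 48 genes and 0.19 over all genes tested, a difference of 1.30. Over 24 settings of scaling, filter, test and libraries it ranged from 1.13 to 1.42. A change of library factors alone shifts all genes alike, so it leaves this difference nearly fixed by construction (1.31 without normalization factors). In CPM, 42 members had every round spermatid library above every spermatocyte library and 2 had every one below, beside 42.1 and 36.1% of all genes. By mean CPM over libraries, 38 of the 48 genes had their lowest stage in spermatocytes, beside 40.4% of all genes tested, and by mean TPM 40 did, beside 45.1%. Both comparisons share the spermatocyte libraries. Summed markers of myoid, Sertoli and endothelial cells were higher in round spermatids too: 240 to 325 CPM against 32.2 to 49.6 in spermatocytes for 8 Sertoli markers, and 166 to 190 against 4.58 to 16.8 for 4 endothelial markers found. Of the 6 myoid markers 6 rose, led by MYH11 with 2153 ± 470 CPM in round spermatids and 5.41 ± 4.06 CPM in spermatocytes; the part of such cells in the result was not tested.

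The largest rises were those of the X-linked members. RPS4X had 53.1, 52.6 and 51.7 CPM in spermatogonia 1, 2 and 3, 26.2, 19.9 and 28.8 CPM in spermatocytes 2, 3 and 4, and 392, 359 and 390 CPM in round spermatids 1, 2 and 3. All round spermatid libraries were close together and far above both other stages. The rise over spermatocytes was 3.93 ± 0.148 SE on the log2 scale, or 15.2-fold (edgeR adjusted p = 5.9e-09), and over spermatogonia 2.86 ± 0.141 SE (edgeR adjusted p = 4.97e-08). RPL36A, of the large subunit, had 22.9, 22.2 and 20.4 CPM in spermatogonia, 23.7, 16 and 22.1 CPM in spermatocytes, and 211, 146 and 217 CPM in round spermatids. It was 9.29-fold higher in round spermatids than in spermatocytes (3.22 ± 0.196 SE, edgeR adjusted p = 1.17e-07) and 3.13 ± 0.195 SE higher than in spermatogonia on the log2 scale (edgeR adjusted p = 2.04e-07). Both X-linked members together held 0.894 to 0.941% of the family's TPM in spermatogonia, 0.65 to 1.08% in spermatocytes and 3.7 to 4.28% in round spermatids. In spermatocytes RPS4X was lower than in spermatogonia by 1.07 ± 0.134 SE, near the family's median of -1.04, and RPL36A was not called. With only 2 X-linked members, no test of X-linked against autosomal members was made.

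**Figure D3:**
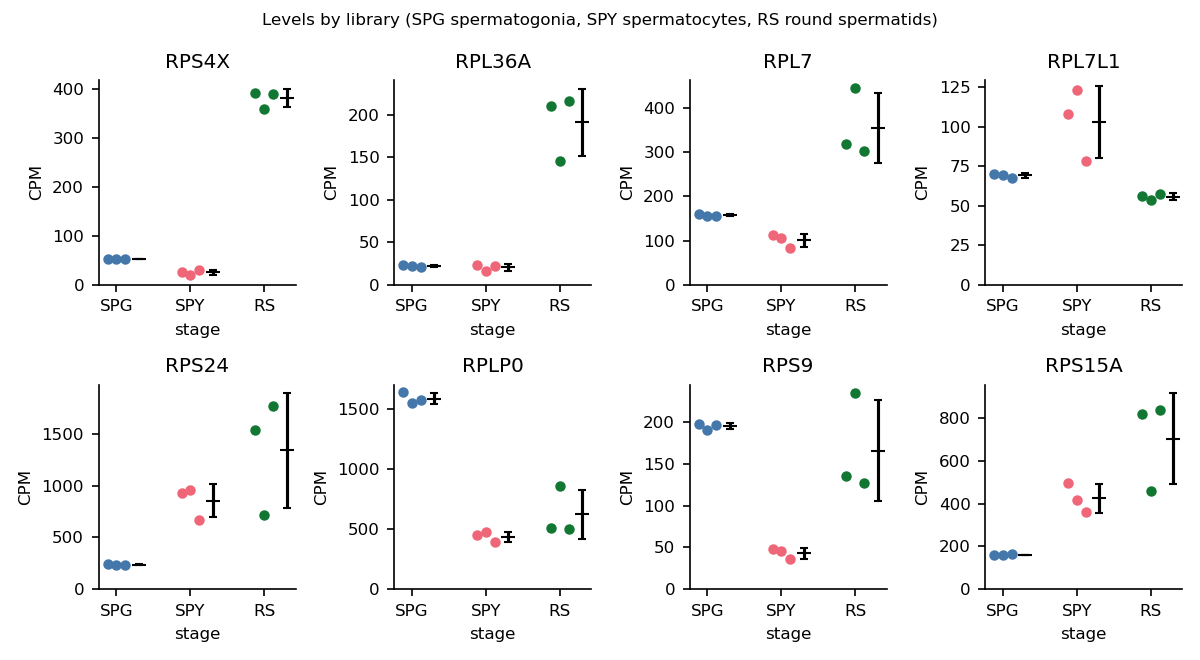
Level in CPM (vertical axes, from 0) of 8 members in each library of spermatogonia (SPG), spermatocytes (SPY) and round spermatids (RS); points are libraries, and bars are the mean and SD of 3. RPS4X lies at 359 to 392 CPM in round spermatids and at or below 53.1 CPM elsewhere, RPL7L1 is highest in spermatocytes, and RPLP0 is highest in spermatogonia.

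Among autosomal members, rises in round spermatids over spermatocytes spread across both subunits. RPL4 had 542, 639 and 513 CPM in round spermatids, against 83.6, 63.4 and 75.1 CPM in spermatocytes, or 7.63-fold (2.93 ± 0.136 SE, edgeR adjusted p = 2.04e-08). RPS23, at the decoding site, had 38.6, 78.3 and 36.6 CPM in round spermatids, against 6.33, 7.62 and 7.92 CPM in spermatocytes (2.81 ± 0.276 SE, edgeR adjusted p = 4.11e-06). In RPS23 round spermatids 2 lay well above the other 2 libraries, and all 3 were above every spermatocyte library. RPL23, of the large subunit, had 658, 404 and 681 CPM in round spermatids, against 122, 80 and 95.3 CPM in spermatocytes (2.55 ± 0.216 SE, edgeR adjusted p = 1.3e-06). Among the 44 members that rose were the 5 genes of the mRNA path, by 1.75 for RPS2 to 2.81 for RPS23, and the 5S partners, RPL5 by 1.87 and RPL11 by 2.11 on the log2 scale. The stalk genes rose less: RPLP1 by 1.37, RPLP2 by 0.86 and RPLP0 by 0.51 (622 ± 205 CPM in round spermatids and 437 ± 41.7 CPM in spermatocytes). The call of RPLP0 was lost without spermatocytes replicate 2 (0.53, edgeR adjusted p = 0.0653), without spermatocytes replicate 4 (0.43, edgeR adjusted p = 0.103) and without round spermatids replicate 2 (0.21, edgeR adjusted p = 0.0519). It was also lost with RLE size factors (edgeR adjusted p = 0.101), with DESeq2 (DESeq2 adjusted p = 0.0976) and when scaled without the 50 most abundant and mitochondrial genes (edgeR adjusted p = 0.197). Fits with a length offset, no filter, TPM on both scales, these 2 stages alone, spermatogonia summed or a replicate block lost it as well. RPSA rose by 0.98, and RPS27A had 155 ± 46.5 CPM in round spermatids and 38.9 ± 5.01 CPM in spermatocytes, a 3.99-fold rise.

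Of the 7 genes that had risen in spermatocytes, 5 rose again in round spermatids, RPL7L1 fell and RPS24 did not pass the test. RPS24 had 1536, 715 and 1774 CPM in round spermatids 1, 2 and 3, against 934, 958 and 671 CPM in spermatocytes 2, 3 and 4. Library 2 of the round spermatids lay among the spermatocyte libraries, and the difference did not pass the test (0.65 ± 0.279 SE, edgeR adjusted p = 0.0523). Without that library it did (0.95, edgeR adjusted p = 0.000211). RPS15A had 820, 457 and 838 CPM in round spermatids, against 498, 417 and 362 CPM in spermatocytes, again with library 2 within the range of spermatocytes (0.73 ± 0.212 SE, edgeR adjusted p = 0.0088, and 0.96 without library 2). Its call was lost with a length trend as offset (edgeR adjusted p = 0.234) and with a replicate block (0.53, edgeR adjusted p = 0.104). RPL37 had 749, 483 and 774 CPM in round spermatids, against 287, 271 and 234 CPM in spermatocytes, with no overlap (1.34 ± 0.171 SE, edgeR adjusted p = 3.19e-05). Among the remaining members that rose were RPL3, RPL6, RPL7, RPL7A, RPL14, RPL23A, RPL27, RPL28, RPL29, RPL35 and RPL38 of the large subunit and RPS3A, RPS7, RPS9, RPS12, RPS13, RPS16, RPS18, RPS20, RPS21, RPS25, RPS27L and RPS29 of the small subunit. Their log2 fold changes ran from 0.29 for RPS27L to 2.53 for RPL6.

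Of the variant genes, RPL7L1 moved against its partner RPL7 in CPM in both comparisons that involve spermatocytes. In spermatocytes over spermatogonia this depended on the scaling. RPL7L1 is a relative of RPL7 found in nucleolar precursors of the large subunit in human cells. It had 70.2, 69.4 and 67.6 CPM in spermatogonia, 108, 123 and 78.3 CPM in spermatocytes, and 56.1, 53.6 and 57.5 CPM in round spermatids, so that its highest stage was the lowest of RPL7. RPL7 itself had 160, 156 and 156 CPM in spermatogonia, 112, 106 and 82.6 CPM in spermatocytes, and 318, 446 and 302 CPM in round spermatids. In spermatocytes over spermatogonia RPL7L1 rose by 0.58, but by 0.15 without normalization factors (edgeR adjusted p = 0.346) and by 0.03 on log2(TPM + 0.1) (limma adjusted p = 0.905). In TPM, spermatocytes 4 (34.5) lay below every spermatogonia library (40.3 to 41.4). RPL7 fell by 0.65 in that comparison. Its call was lost when scaled without the 50 most abundant and mitochondrial genes (edgeR adjusted p = 0.0717). RPL7L1 fell in round spermatids against spermatocytes by 0.89 ± 0.15 SE (edgeR adjusted p = 0.000267), while RPL7 rose by 1.83 ± 0.169 SE (edgeR adjusted p = 2.53e-06). As percent of RPL7, in TPM, RPL7L1 stood at 21.2, 21.5 and 20.9% in spermatogonia, at 46.6, 56.3 and 45.7% in spermatocytes, and at 8.51, 5.81 and 9.21% in round spermatids. The stages did not overlap in this ratio (exact permutation p = 0.10 for each of the 3 comparisons, 0.12 adjusted over 6 ratios tested). The level of the ratio, unlike its change between stages, depends on the gene lengths that the deposited tables imply. These were 1.27 times the median gene for RPL7L1 and 0.612 for RPL7. In CPM RPL7L1 averaged 103 ± 22.9 and RPL7 100 ± 15.5 in spermatocytes. RPL3L, known as the striated muscle variant of RPL3, was measured at 2.02, 2.22 and 2.04 CPM in spermatogonia, 1.04, 1.07 and 0.67 CPM in spermatocytes, and 0.728, 0.976 and 0.71 CPM in round spermatids. It amounted to 4.3, 4.98 and 4.67% of RPL3 in spermatogonia, 5.11, 5.76 and 3.78% in spermatocytes, and 1.49, 1.55 and 1.48% in round spermatids, in TPM. In spermatocytes and spermatogonia that ratio did not differ beyond the spread between libraries (exact permutation p = 0.80). Its level depends on implied lengths of 0.501 times the median gene for RPL3L and 2.66 for RPL3. In CPM RPL3L averaged 2.09 ± 0.112 and RPL3 239 ± 8.57 in spermatogonia. RPL26L1, a close copy of RPL26, fell in round spermatids by 0.87 ± 0.129 SE against spermatocytes (16 ± 0.489 and 29.4 ± 4.43 CPM, edgeR adjusted p = 0.000101). RPS27L, the p53-inducible relative of RPS27, had 15.7 ± 0.479 CPM in spermatogonia, 19.6 ± 1.06 CPM in spermatocytes and 24 ± 2.38 CPM in round spermatids. Its rise over spermatocytes of 0.29 (edgeR adjusted p = 0.038) lost its call in 7 of 9 fits that each left out 1 library, at 0.22 to 0.32 and edgeR adjusted p-values of 0.052 to 0.14. RPL26 and RPS27 themselves were not found by symbol and were not analysed here.

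In round spermatids over spermatogonia the members moved in both directions, while their summed share was higher in round spermatids. In round spermatids 27 of the 48 genes rose, 7 fell and 14 did not pass the test; of all genes tested 39.5% rose and 39.7% fell, or 79.2% in either direction. The median log2 fold change was 0.59 over the 48 genes and 0.00 over all genes tested. The counts depended on scaling and on round spermatids 2. In CPM 28 members had all round spermatid libraries above all spermatogonia libraries and 9 had all of them below, beside 41.7 and 43.5% of all genes. On log2(TPM + 0.1) 13 members rose and 12 fell, beside 26.4 and 49.7% of all genes, with a members' median of -0.03 that lay 0.55 above that of all genes. Without round spermatids 2, 25 members rose and 11 fell, beside 41.3 and 40.2% of all genes, and the median was 0.33, or 0.32 above that of all genes. Over 24 settings the members' median exceeded that of all genes by 0.32 to 0.65. Settings that change only the library factors cannot move this excess, which stayed at 0.59 in them. The myoid and Leydig markers given above differ between these stages in opposite directions, and their part in the result was not tested.

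Apart from RPL36A and RPS4X, the largest rises in round spermatids over spermatogonia were those of RPL37 (669 ± 162 CPM in round spermatids and 111 ± 3.46 CPM in spermatogonia, 2.59 ± 0.179 SE, edgeR adjusted p = 3.99e-07) and RPL23 (581 ± 154 and 101 ± 0.73 CPM, 2.52 ± 0.216 SE, edgeR adjusted p = 1.76e-06). RPS24 rose by 2.50 ± 0.294 SE, RPL11 by 2.18 ± 0.169 SE, RPS15A by 2.14 ± 0.22 SE and RPL4 by 1.77 ± 0.13 SE. RPL5 rose by 1.27, RPL23A by 1.03 and RPL35 by 0.58. Among members of at least 50 CPM in either stage, the largest fall was in the stalk base. RPLP0 had 510, 858 and 498 CPM in round spermatids, against 1640, 1545 and 1571 CPM in spermatogonia, so that even round spermatids 2 lay below every spermatogonia library (-1.35 ± 0.198 SE, edgeR adjusted p = 9.9e-05). RPLP2 fell by 0.50 ± 0.154 SE (258 ± 46.3 CPM in round spermatids and 365 ± 21.9 CPM in spermatogonia) and RPSA by 0.48 ± 0.116 SE (258 ± 34.2 and 361 ± 21.5 CPM). RPL3L, RPL26L1 and RPS18 also fell, by 1.38, 0.76 and 0.35. The third stalk gene, RPLP1, had 382, 704 and 363 CPM in round spermatids, against 512, 464 and 452 CPM in spermatogonia, and was not called (0.02 ± 0.229 SE, edgeR adjusted p = 0.937). Without round spermatids 2 it fell by 0.35 (edgeR adjusted p = 0.016), and RPS9, not called either, fell by 0.58 (edgeR adjusted p = 0.00172). RPS23 rose by 0.71 (edgeR adjusted p = 0.0258), a call lost without round spermatids 2 (0.27, edgeR adjusted p = 0.0517) and without any 1 of spermatogonia 1, 2 and 3 (0.68 to 0.73, edgeR adjusted p-values of 0.0557 to 0.0717). RPL7L1, at -0.31 and not called (edgeR adjusted p = 0.0796), was called lower without spermatocytes 3 (edgeR adjusted p = 0.0417) or spermatocytes 4 (edgeR adjusted p = 0.00829). RPL6 rose 4-fold, with 517 ± 42.6 CPM in round spermatids and 129 ± 3.85 CPM in spermatogonia. Among the other members that rose were RPL7, RPL7A, RPL14, RPL27, RPL28, RPS3, RPS3A, RPS13, RPS16, RPS25, RPS27A and RPS27L, by 0.41 for RPS3A to 1.47 for RPS3. Those that did not pass were RPL3, RPL29, RPL38, RPS2, RPS7, RPS12, RPS15, RPS20, RPS21, RPS28 and RPS29 beside RPLP1, RPS9 and RPL7L1.

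**Figure D4:**
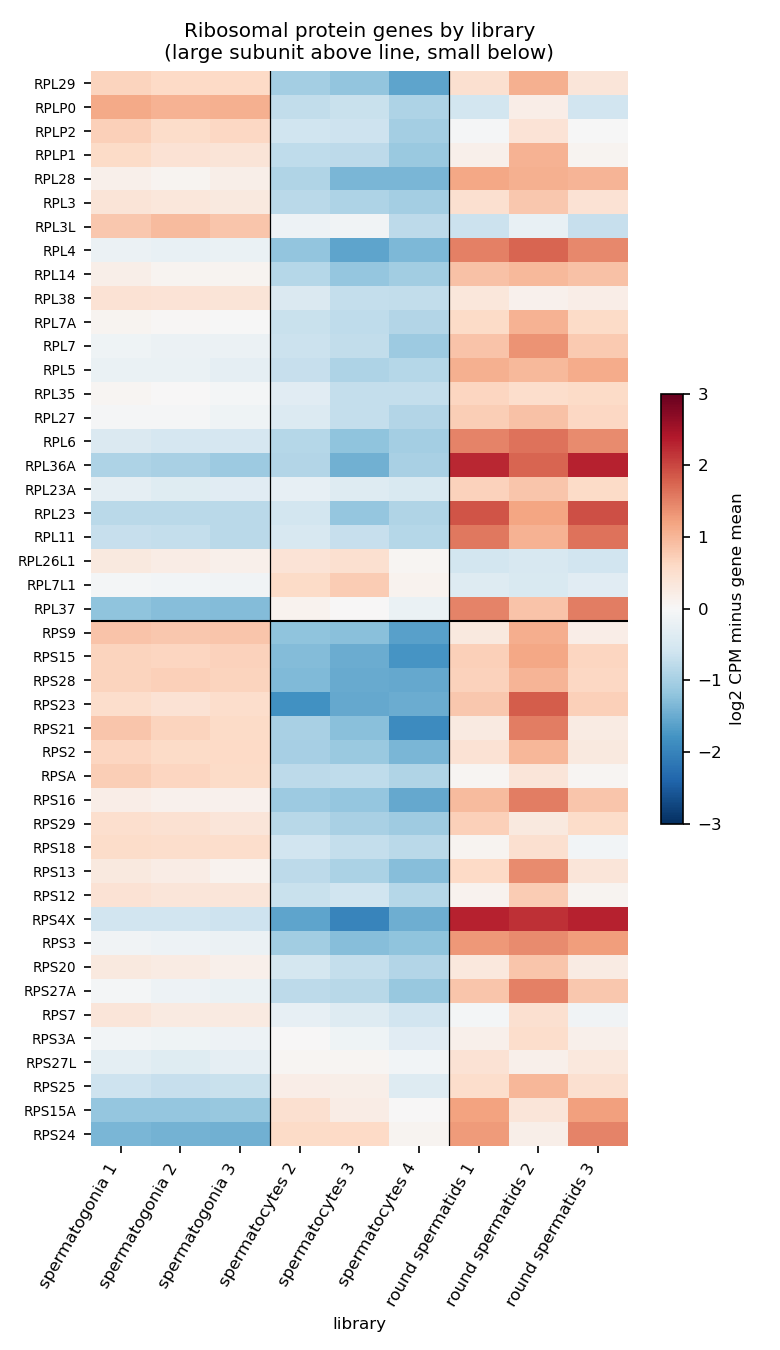
Level of 45 of the 48 genes (rows) in each of the 9 libraries (columns), as log2 CPM minus the mean of the gene over the libraries (colour scale), with large subunit genes above the line and small subunit genes below it. Spermatocyte columns are blue for most rows, the rows of RPS24, RPS15A and RPL37 are blue in spermatogonia, and round spermatids 2 differs from round spermatids 1 and 3 in rows such as RPS21 and RPS23.

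Round spermatids 2 differed from the other 2 round spermatid libraries in the make-up of the family as well as in its sum. In it 33 of the 48 genes were higher than the mean of the other round spermatid libraries, with a median ratio of 1.23, beside 50.4% of all genes. It was lower in RPS24, RPS15A, RPL37, RPL23, RPL11 and RPL36A and higher in RPS23, RPS21, RPS13, RPLP1, RPS9 and RPLP0. RPS21 had 61.9 CPM in library 2, against 25.8 and 25.3 CPM in libraries 1 and 3, and RPS13 had 237 CPM, against 135 and 114 CPM. Mitochondrial genes held 3.14% of the counts of library 2 and 9.09 and 10.2% of those of libraries 1 and 3; its part in these differences was not tested. The median coefficient of variation of the 48 genes between libraries was 3.01% in spermatogonia, 13% in spermatocytes and 19.8% in round spermatids.

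To see which members departed from the family as a whole, the libraries were scaled to the summed counts of the 48 genes in place of all genes. In this scaling the mean change of the family is set near 0 by construction, and a gene that departs does so relative to the others. In spermatocytes over spermatogonia 13 members lay above the family and 22 below it (beside 46.1% and 22.6% of all genes), in round spermatids over spermatocytes 21 above and 16 below (23.0% and 58.5%), and in round spermatids over spermatogonia 18 above and 20 below (28.0% and 51.2%). Relative to the family RPS24 was higher in spermatocytes than in spermatogonia by 2.58 and RPS15A by 2.15, and RPS9 was lower by 1.45 and RPLP0 by 1.12 on the log2 scale. RPS4X was higher in round spermatids than in spermatocytes by 2.57 relative to the family and RPL36A by 1.88. The stalk gene RPLP0 was lower relative to the family in all 3 comparisons, by 1.12 in spermatocytes over spermatogonia, 0.84 in round spermatids over spermatocytes and 1.96 in round spermatids over spermatogonia (edgeR adjusted p = 0.000291, 0.00128 and 3.49e-06). The 3 comparisons share libraries, so these values are not independent of each other.

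**Figure D5:**
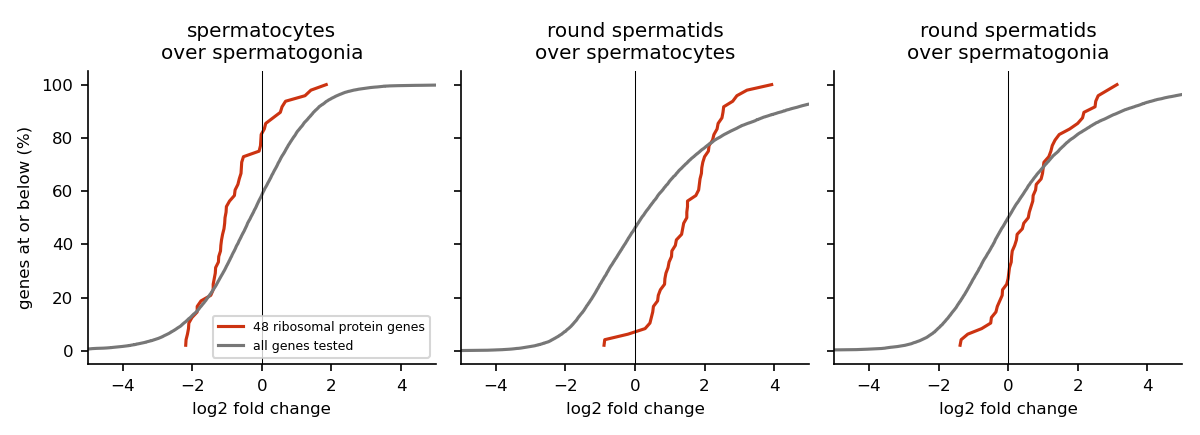
Cumulative share of genes (vertical axes, %) at or below a log2 fold change (horizontal axes) for the 48 ribosomal protein genes (red) and for all 16802 genes tested (grey) in the 3 comparisons. The red curve lies left of the grey over most of its range in spermatocytes over spermatogonia (medians -1.04 and -0.32), right of it in round spermatids over spermatocytes (1.49 and 0.19), and is steeper around a median of 0.59 in round spermatids over spermatogonia.

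Ribosomal protein genes are short, and their length was checked because libraries can differ in their recovery of short transcripts. The deposited tables imply a length for each gene, and 43 of the 48 members lay under that of the median gene, with a range of 0.0429 for RPS29 to 2.66 for RPL3 times the median gene. In the shortest quintile of genes by implied length, which holds 30 members, the median log2 fold change of all genes was -0.32 in spermatocytes over spermatogonia, 0.13 in round spermatids over spermatocytes and -0.09 in round spermatids over spermatogonia. The 30 members had medians of -1.08, 1.68 and 0.72. With a length trend fitted per library as an offset, the members' medians were -0.76, 1.17 and 0.48, and their differences from the medians of all genes were -0.73, 1.32 and 0.53. Across the 48 members, which share libraries and are not replicates, Pearson's r between the log2 fold change and the log2 of the implied length was -0.00, -0.10 and -0.09.

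Genes for the proteins of the mitochondrial ribosome were lower in the median in all 3 comparisons. The 48 genes of the cytosolic ribosome were lower in the median in spermatocytes over spermatogonia and higher in the other comparisons. Of 64 genes named MRPL or MRPS, 17 rose and 32 fell in spermatocytes over spermatogonia (median -0.43), 10 rose and 39 fell in round spermatids over spermatocytes (median -0.60), and 3 rose and 43 fell in round spermatids over spermatogonia (median -0.58). Of all genes tested 29.3% rose and 44.0% fell in the first of these comparisons (median -0.32), to which the mitochondrial set was close, 42.7 and 36.4% in the second (median 0.19), and 39.5 and 39.7% in the third (median 0.00). The same shares of all genes stand behind the counts of the gene lists that follow. Counts of the 48 cytosolic genes over those of the mitochondrial ribosomal genes were 3.87 ± 0.0281 in spermatogonia, 2.69 ± 0.0891 in spermatocytes and 11.3 ± 0.204 in round spermatids (SD, n = 3). The ratio thus differed 4.2-fold between round spermatids and spermatocytes, with no overlap of libraries (exact permutation p = 0.10, 0.11 adjusted over 9 ratios tested). Over the counts of genes of translation initiation with an EIF symbol, the ratio was 1.93 ± 0.0468 in spermatogonia, 0.834 ± 0.106 in spermatocytes and 2.12 ± 0.0327 in round spermatids. Of 45 such genes 23 rose and 13 fell in spermatocytes over spermatogonia, and 19 rose and 19 fell in round spermatids over spermatocytes. EIF3A, the scaffold of initiation factor eIF3, stood at 601 ± 17.9 CPM in spermatocytes and 163 ± 5.12 CPM in spermatogonia. EIF3F went the other way, at 95 ± 1.37 CPM in spermatocytes and 279 ± 5.78 CPM in spermatogonia.

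Genes that assemble the ribosome rose and fell in similar numbers in spermatocytes. Of 61 ribosome biogenesis genes 25 rose and 23 fell in spermatocytes over spermatogonia (median 0.04), 33 rose and 14 fell in round spermatids over spermatocytes (median 0.54), and 32 rose and 17 fell in round spermatids over spermatogonia (median 0.42), beside medians of -0.32, 0.19 and 0.00 over all genes tested. RPF2, which loads the 5S particle with RPL5 and RPL11, rose in spermatocytes (43.1 ± 1.88 CPM, against 8.9 ± 0.193 CPM in spermatogonia). NCL, which encodes nucleolin, rose in round spermatids (1029 ± 344 CPM, against 158 ± 27.3 CPM in spermatocytes), and FBL, the rRNA methyltransferase fibrillarin, did too (45.4 ± 5.19 and 7.63 ± 1.43 CPM). Among those that fell, RRP12 had 7.64 ± 0.726 CPM in spermatocytes and 25.7 ± 0.748 CPM in spermatogonia. NAT10 had 51.6 ± 2.7 CPM in round spermatids and 250 ± 23.2 CPM in spermatocytes. Counts of the ribosomal protein genes over those of the biogenesis genes were 3.18 ± 0.0599 in spermatogonia, 1.49 ± 0.088 in spermatocytes and 3.54 ± 0.715 in round spermatids. Round spermatids and spermatogonia did not differ in this ratio beyond the spread between libraries (exact permutation p = 0.90, 0.90 adjusted over 9 ratios tested). Round spermatids 2 stood at 4.36, against 3.15 and 3.1 in round spermatids 1 and 3.

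Of 15 other translation genes whose mRNAs are known to carry a TOP tract, 7 rose and 5 fell in spermatocytes over spermatogonia (median 0.08) and 11 rose and 4 fell in round spermatids over spermatocytes (median 0.60), beside 29.3 and 44.0% of all genes in the first comparison and 42.7 and 36.4% in the second. PABPC1, the poly(A)-binding protein, rose in spermatocytes to 8831 ± 816 CPM, against 4151 ± 38 CPM in spermatogonia. EEF1D fell there to 23.8 ± 6.72 CPM, against 82.3 ± 1.29 CPM in spermatogonia. TPT1, a TOP mRNA of the translationally controlled tumour protein, rose in round spermatids (1690 ± 89 CPM, against 362 ± 36 CPM in spermatocytes), as did RACK1, itself a protein of the small subunit (436 ± 81.2 and 114 ± 9.17 CPM). FAU encodes the small subunit protein eS30 as a fusion with a ubiquitin-like protein, under a symbol outside the rule. It went against most of the family in round spermatids, with 117 ± 4.97 CPM in spermatogonia, 99.8 ± 11.3 CPM in spermatocytes and 13.7 ± 2.56 CPM in round spermatids (-2.87 ± 0.153 SE over spermatocytes, edgeR adjusted p = 4.77e-08).

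Of 14 regulators of TOP mRNAs and of ribosome supply, 5 rose and 5 fell in spermatocytes over spermatogonia, and 6 rose and 6 fell in round spermatids over spermatocytes, beside 29.3 and 44.0%, then 42.7 and 36.4%, of all genes. LARP1, which binds TOP tracts, had 457 ± 8.69 CPM in spermatogonia, 937 ± 91.4 CPM in spermatocytes and 221 ± 24.5 CPM in round spermatids. MTOR had 97.4 ± 6.71 CPM in round spermatids and 514 ± 96.5 CPM in spermatocytes (-2.40 ± 0.146 SE, edgeR adjusted p = 1.15e-07). MYC, a transcription factor of ribosomal protein genes in mammals, averaged 1.15 ± 0.18 CPM in spermatogonia, 0.486 ± 0.625 CPM in spermatocytes and 232 ± 32.3 CPM in round spermatids. Of 11 genes of ribosome rescue and storage, 7 rose and 3 fell in spermatocytes over spermatogonia (median 0.71), and 2 rose and 6 fell in round spermatids over spermatocytes (median -0.46), beside the same shares and medians of -0.32 and 0.19 over all genes. ABCE1, which splits the subunits after termination, had 37.6 ± 1.11 CPM in spermatogonia, 430 ± 43.3 CPM in spermatocytes and 83.6 ± 12.6 CPM in round spermatids. SERBP1, which occupies the mRNA channel of idle ribosomes, had 585 ± 19.2 CPM in spermatocytes and 159 ± 2.64 CPM in spermatogonia. GTPBP2 of the same list fell, with 16.2 ± 1.01 CPM in spermatocytes and 27.3 ± 0.519 CPM in spermatogonia. The comparison lists overlap with each other in 8 genes, and the part of the marker-bearing somatic cells given above in the level of MYC was not tested.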

How the data were processed

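The authors deposited a table of estimated counts per gene and a table of TPM with a column per library, from paired reads of a directional kit; per the submitters' processing notes the build is Sscrofa11.1 and bcl2fastq was used. For the aligner, the quantifier and use of strand, nothing is given in the sources used here. Processed copies of ribosomal protein genes are many in mammals, so reads may be shared with copies, and overlapping or antisense genes are uncertain. In the deposited values each count equals TPM times a gene factor and a library factor (largest log deviation 3.64e-14 over 16193 genes); the gene factor served as implied length. Round spermatid columns carry the titles; c-kit columns were read as spermatogonia and Pachy columns as spermatocytes with the same numbers, from the meaning of the names, which the labels do not state. The other 6 of 15 library columns, headed SSEA4 or RS with other numbers, were not used. SSEA4 columns could also be spermatogonia, but their numbers match those of the spermatogonia samples only in part; if they were, each spermatogonia value here would describe other cells.

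Counts were rounded, filtered with filterByExpr, scaled by TMM (factors 0.7741 to 1.26) and fitted over all 9 libraries by glmQLFit and glmQLFTest of edgeR 4.0.16, under R 4.3.3; common dispersion was 0.03161. CPM are relative to the scaled library. The SE is the log2 fold change divided by the square root of F. Alternatives used limma 3.58.1, DESeq2 1.42.0, log2(TPM + 1) and log2(TPM + 0.1), other scalings and filters, and each library left out. Shares and ratios were compared with exact permutation tests, two-sided, in scipy 1.17.1 (Python 3.11.15), with pandas 2.3.3, numpy 2.4.6 and, for plots, matplotlib 3.10.9. The procedure was also run on simulated counts in which each gene had the same dispersion in all stages. The stages here differ in spread, so that run cannot show how the tests behave on them. No animals are named in the labels; the p-values therefore reflect only how these libraries vary, in part perhaps technically.

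Members and lists were chosen with earlier results of these data known, and groups by role after values were seen. Some members are not reported one by one here but remain in the family's sums, counts and medians. Among the other members, those named with values were, per comparison, from the 4 largest rises and 4 largest falls among called members of at least 50 CPM in the higher stage, variant pairs, stalk genes, RPSA, from the 3 highest and 3 lowest by TPM, and up to 4 genes per list of at least 20 CPM; other values were added after they were seen.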

Additional observations from a re-analysis of the deposited data

How the results depend on the processing

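The share of counts kept its direction in each comparison under each alternative run. Scaling moved the medians. A change of library factors alone shifts all genes alike, so the distance of the members' median from that of all genes stays nearly fixed. Over the 24 settings, which also varied filter, test, TPM scale and libraries, this distance kept its sign. It ranged from -1.14 to -0.59 for spermatocytes over spermatogonia. For round spermatids it ranged from 1.13 to 1.42 over spermatocytes and from 0.32 to 0.65 over spermatogonia. In spermatocytes over spermatogonia the members' median was -0.86 with RLE size factors and with DESeq2, -1.47 with no normalization factors, -0.80 when scaled without the 50 most abundant and mitochondrial genes, -0.30 when scaled to the members' summed counts, -0.76 with a length offset, -0.82 with no filter, -1.55 on log2(TPM + 1), -1.57 on log2(TPM + 0.1) and -0.85 with these 2 stages fitted alone. The count of rises was 3 with no factors, on both TPM scales and with spermatogonia summed, and 13, with 22 falls, in the members' scaling. In round spermatids over spermatocytes the median was 1.95 with no factors, 1.29 without the most abundant genes and with no filter, 1.17 with the length offset, and 0.15, with 21 rises and 16 falls, in the members' scaling. In round spermatids over spermatogonia the median was -0.00, with 20 falls, in the members' scaling, 0.48 with the length offset, and -0.03, with 13 rises and 12 falls, on both TPM scales. Leaving out each library in turn gave 24 to 27 rises, 6 to 11 falls and medians of 0.33 to 0.61 there.

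Of 1449 alternatives for 21 named members, 1302 left direction and call as they were, 71 lost a call, 25 gained one and 51 changed direction. Some of these fits differ little, such as both TPM scales, or leave out a library of a stage not compared. The alternatives are therefore not independent, and these totals do not measure stability. Changes of direction came mostly in values near 0, and the cause was not tested beyond the construction of each scaling. RPL23 in spermatocytes over spermatogonia (-0.03) became 0.15 with RLE and DESeq2, 0.21 without the most abundant genes, 0.16 with the length offset, 0.20 with no filter, 0.17 with 2 stages alone, and 0.00 to 0.11 without spermatocytes 3 or 4. RPL36A there (-0.08) became 0.09 with RLE and DESeq2, 0.15, 0.29, 0.14 and 0.11 under the same other settings, and 0.07 without spermatocytes 3. RPS27L became -0.10 with no factors and -0.19 and -0.21 on the TPM scales. In round spermatids over spermatocytes RPL3L (-0.20) became 0.28 with no factors, and RPS27L -0.09 with the length offset. In round spermatids over spermatogonia the TPM scales gave -0.37 and -0.38 for RPL3, -0.66 for RPLP1, -0.44 and -0.45 for RPS15, -0.01 for RPS27L and -0.53 for RPS28. RPLP1 was -0.05 with limma-voom, -0.04 with spermatogonia summed, -0.01 without spermatogonia 3, and -0.35 to 0.18 without a round spermatid library, and RPS28 was -0.03 without round spermatids 2. In the members' scaling, which sets the family near 0, direction changed in spermatocytes over spermatogonia for RPL23 (0.71), RPL36A (0.67) and RPL7 (0.08), in round spermatids over spermatocytes for RPLP0 (-0.84), RPLP2 (-0.47), RPS15A (-0.59), RPS24 (-0.66), RPS25 (-0.66), RPS27L (-1.05) and RPSA (-0.36), and in round spermatids over spermatogonia for RPL3 (-0.36), RPLP1 (-0.59), RPS15 (-0.42) and RPS28 (-0.50).

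Whether equal replicate numbers mean the same animal is not stated in the labels. Same-numbered libraries correlated at -0.0483 to 0.0283 in their deviations from the stage means. These values cannot decide it, because the spermatogonia libraries differed little from each other (median chi-square per gene of 0.808 to 0.868). With the replicate block, spermatocytes over spermatogonia gave 7 rises and 35 falls (median -0.98), round spermatids over spermatocytes 39 and 2 (1.38), and round spermatids over spermatogonia 26 and 8 (0.59). With the block RPL23 in spermatocytes over spermatogonia was 0.06 and RPLP1 in round spermatids over spermatogonia -0.03. Calls were lost for RPS15A (0.53, edgeR adjusted p = 0.104), RPLP0 (0.45, edgeR adjusted p = 0.119) and RPS27L (0.21, edgeR adjusted p = 0.191) in round spermatids over spermatocytes and for RPS23 (0.65, edgeR adjusted p = 0.06) in round spermatids over spermatogonia, where RPL7L1 gained one (-0.31, edgeR adjusted p = 0.0243). Depth limits RPL3L most, at 0.67 to 2.22 CPM. Among named calls lost under scaling or filter alternatives beside those given with the results were RPL7 in spermatocytes over spermatogonia (adjusted p = 0.0612 in edgeR with no filter), RPS25 in round spermatids over spermatocytes (0.0511 to 0.0942 in edgeR and limma) and RPLP2 in round spermatids over spermatogonia (0.0807 with spermatogonia summed).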
